A study of Mus musculus with 24 samples.

Results

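The genes described here encode subunits of respiratory complexes II to V in mouse cardiomyocytes, together with cytochrome c. They were taken by name from the count table: Sdha to Sdhd, Cyc1, Cycs and every symbol beginning with Uqcr, Cox4, Cox5, Cox6, Cox7, Cox8 or Atp5. Of 50 such rows, 48 had 10 or more reads in at least 6 of the 24 libraries, out of 23337 genes in the table. The 2 rows left out, Cox8c and Cox7b2, never exceeded 3 reads in a library. By complex, the 48 genes comprise 4 subunits of complex II, 9 of complex III, 15 of complex IV and 15 of complex V (ATP synthase), plus Cycs. The other 4 share a name but encode no subunit: Cox7a2l is a factor that joins respiratory complexes into larger assemblies, Atp5s is now Dmac2l, Atp5sl is now Dmac2, and Cox4nb is now Emc8, a part of a membrane complex of the endoplasmic reticulum. All 48 also passed the low-count filter of the test. The least detected were Atp5g2, Cox4i2 and Cox6b2, with 10 or more reads in 12, 15 and 21 libraries.

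The 24 libraries, 6 in each group, hold polyadenylated RNA of sorted cardiomyocytes from 4-week-old mice injected on postnatal day 1 with adeno-associated virus (AAV). TKO mice carried Mrtfa null alleles (spelt Mrfta-/- in the labels), floxed Mrtfb alleles (Mrtfb-F/F) and Cas9 at both Rosa26 alleles, and received AAV-Myocd-sgRNA. DKO mice had that same genotype and received AAV-Cre. MKO mice carried Cas9 at both Rosa26 alleles, with no Mrtfa or Mrtfb allele named, and received AAV-Myocd-sgRNA. Control mice (Ctrl) had the MKO genotype and received AAV-Cre. Cas9 is therefore common to all 4 groups, and Cre virus is named only for DKO and Ctrl. Which promoter drives Cre, and whether the guide virus also carries Cre, are not given in the sources used here. The labels do not state whether each library is a different mouse, and the p-values therefore reflect the variation among libraries, which may be technical.

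Complex II oxidises succinate and passes its electrons to ubiquinone, complex III hands them to cytochrome c, and complex IV (cytochrome c oxidase) reduces oxygen with them. Complexes III and IV pump protons, and complex V makes ATP as the protons flow back. Heart muscle depends on this chain for nearly all its ATP, and it replaces some widely expressed complex IV subunits by muscle isoforms: COX6A2 for COX6A1, COX7A1 for COX7A2 and, in mice, COX8B for COX8A. All members here are nuclear genes, since the table has 0 rows for the mitochondrial chromosome.

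Total counts were 10210516 to 17184517 in TKO, 5830185 to 12157279 in DKO, 9731621 to 13201995 in MKO and 8017413 to 11496873 in Ctrl libraries. Of the targeted genes, Mrtfa (listed as Mkl1) had a median of 2.36 CPM (counts scaled to TMM-adjusted library size) in TKO, 1.96 in DKO, 10.3 in MKO and 7.55 in Ctrl, and Mrtfb (Mkl2) had 37.4, 32.9, 51.4 and 48.8 CPM in the same order of groups. Myocd had a median of 230.1 CPM in TKO, 206 in DKO, 140.3 in MKO and 181.5 in Ctrl, and these levels do not show whether its coding sequence was edited. Summed CPM of 8 cardiomyocyte markers was 80197 to 104956 in TKO, 87277 to 104854 in DKO, 90278 to 112069 in MKO and 106928 to 132672 in Ctrl. Summed fibroblast, endothelial, and smooth muscle and pericyte markers each stayed under 1330 CPM in every library, and no marker of these 3 lists was at 0 in any library. In the order TKO, DKO, MKO and Ctrl, the median sums were 349, 492, 579 and 358 CPM for fibroblast markers. They were 311, 523, 680 and 420 CPM for endothelial markers, and 435, 521, 739 and 633 CPM for smooth muscle and pericyte markers. The median log2 ratio of TKO to MKO over each list was -0.98, -1.12 and -1.03.

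One library, DKO 1, stood apart for these genes. Their subunits and Cycs summed to 90580 CPM in DKO 1, against 44698 to 50050 CPM in the other 5 DKO libraries. They took 7.78% of all reads there, against 4.00 to 4.78% in TKO and 4.76 to 5.70% in Ctrl libraries. In DKO 1, 43 of the 48 genes were higher than in every other library, and the ratio of DKO 1 to the median of the other DKO libraries was itself 2.19 at the median over the 48. For the sums by complex, the ratio of DKO 1 to the mean of the other DKO libraries was 1.58 for complex II, 2.12 for complex III, 2.19 for complex IV and 1.82 for complex V, so complex II was the least raised. DKO 1 was also the shallowest library, and short genes in general were high in it. Among other genes, the median log2 ratio of DKO 1 to the other DKO libraries was 0.94 for 278 genes under 700 bases and -0.58 for 5995 genes over 3000 bases, against 1.13 for the 24 members under 700 bases and 0.76 for the 2 over 3000 bases. The part of transcript length or depth in the DKO 1 values was not tested. The mean levels in the authors' deposited tables match those of the groups compared without DKO 1 and Ctrl 3, so the fit is given below for all 24 libraries, without DKO 1, and for the 22 libraries without both.

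**Figure D1:**
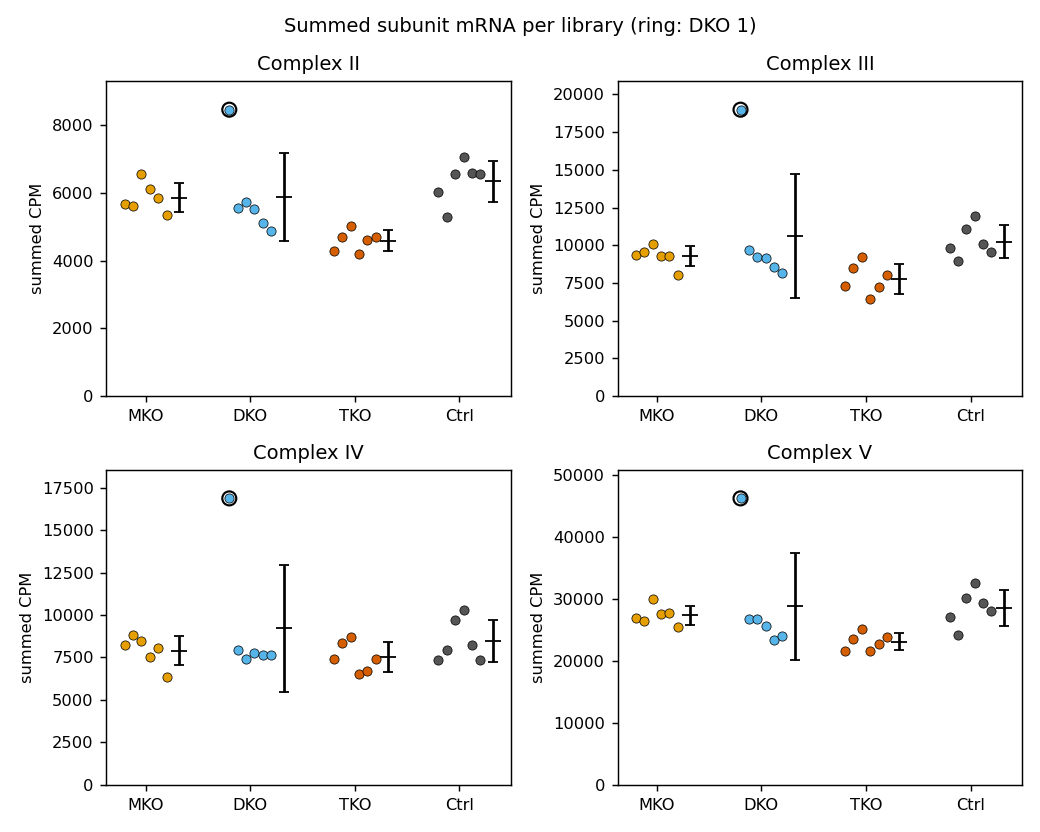
Summed CPM of the subunit genes of complexes II, III, IV and V in each of 24 libraries by group, with the mean and SD of 6 libraries beside the points and a ring around DKO 1. DKO 1 lies above every other library in all 4 panels, and all 6 TKO libraries lie below all 6 Ctrl libraries for complex II.

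To show what lies upstream of genes the results turn on, the 250 bases before the start of 4 genes are printed 5′ to 3′ on the gene's own strand, from RefSeq (GRCm38.p6). Cox8a and Cox6a1 were higher in TKO than in Ctrl, Sdha was lower, and Cox8b is the muscle partner of Cox8a. Capitals mark matches to the site of nuclear respiratory factor 1 (Nrf1), an activator of respiratory genes, spelt GCGCA, any base, then GCGC.
Cox8a (chr19:7217617-7217866, minus strand): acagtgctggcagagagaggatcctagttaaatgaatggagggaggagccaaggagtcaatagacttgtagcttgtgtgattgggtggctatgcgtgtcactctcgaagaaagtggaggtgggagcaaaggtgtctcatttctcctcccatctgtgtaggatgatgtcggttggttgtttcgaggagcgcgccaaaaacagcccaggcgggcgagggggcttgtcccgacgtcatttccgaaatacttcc
Cox8b (chr7:140900447-140900696, minus strand): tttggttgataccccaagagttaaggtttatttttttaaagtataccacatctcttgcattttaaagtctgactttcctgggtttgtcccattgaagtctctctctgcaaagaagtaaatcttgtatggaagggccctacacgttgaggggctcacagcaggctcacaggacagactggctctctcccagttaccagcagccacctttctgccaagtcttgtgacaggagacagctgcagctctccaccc
Cox6a1 (chr5:115348959-115349208, minus strand): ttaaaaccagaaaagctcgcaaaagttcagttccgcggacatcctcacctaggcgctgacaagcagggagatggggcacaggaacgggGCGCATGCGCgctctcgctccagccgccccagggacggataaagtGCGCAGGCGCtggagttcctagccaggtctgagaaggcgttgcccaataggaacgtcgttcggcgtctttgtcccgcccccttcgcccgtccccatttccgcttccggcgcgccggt
Sdha (chr13:74350241-74350490, minus strand): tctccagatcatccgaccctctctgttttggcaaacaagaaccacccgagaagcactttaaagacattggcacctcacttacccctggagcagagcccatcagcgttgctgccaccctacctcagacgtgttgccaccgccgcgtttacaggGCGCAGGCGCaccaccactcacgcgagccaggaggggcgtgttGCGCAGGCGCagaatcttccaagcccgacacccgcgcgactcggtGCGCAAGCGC
The Cox6a1 sequence holds 2 such matches and the Sdha sequence 3, while the Cox8a and Cox8b sequences hold none. GC content was 52.8% for Cox8a, 47.2% for Cox8b, 62.8% for Cox6a1 and 61.6% for Sdha, and the median over all promoters was 52.4%.

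Promoter windows (250 bases before to 50 after the start) were held for 37 of the 48 genes and searched on both strands for 5 motifs. The Nrf1 site was found in 10 of the 37 (27%), against 5.19% of 27025 genes: Atp5c1, Atp5g2, Atp5g3, Atp5h, Atp5k, Atp5o, Cox6a1, Sdha, Sdhd and Uqcrc1. The half-site of the estrogen-related receptors, TCAAGGTCA, was found in Atp5g3 and Sdhd (5.41%, against 0.466%). The Ets site CCGGAAGT was found in Atp5h, Cox8a, Uqcr11 and Uqcrh (10.8%, against 4.31%), and Cox8a holds 2 matches, 1 across the start with 6 of its bases in the printed sequence and 1 after the start. No window held the CArG box to which serum response factor binds (0 of 37, against 1.81% of genes) or the Mef2 site (0 of 37, against 0.636%). These matches describe letters in a window. Both Cox6a1, which was higher in TKO, and Sdha, which was lower, hold Nrf1 matches.

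Several catalytic and core subunits fell in TKO relative to Ctrl, and 2 complex IV isoforms rose. At an adjusted p under 0.05 (edgeR, over 12281 genes), 8 members were lower (Sdha, Sdhb, Sdhc, Uqcrfs1, Uqcrc1, Uqcrc2, Cycs and Atp5a1) and 2 were higher (Cox8a and Cox6a1), where 5.98% of all tested genes were lower and 8.14% higher. The fitted log2 ratio was negative for 44 of 48, with a median of -0.25 over the members and -0.01 over all tested genes. By complex, 3 of 4 members were lower in complex II, 3 of 9 in complex III, 1 of 15 in complex V and 0 of 15 in complex IV, which held the 2 higher ones, and the complexes were not tested against each other. Without DKO 1, 20 members were lower and 2 higher, where 10.9% and 11.8% of 12366 genes were, and with 22 libraries 17 were lower and 2 higher (10.3% and 11% of 12356 genes). Without DKO 1 the lower members were 4 of 4 in complex II, 4 of 9 in complex III, 7 of 15 in complex V and 2 of 15 in complex IV, so the low count in complex V rests on that library. DKO 1 is in neither group, and it enters the estimate of spread that the 4 groups share: the median log2 ratio without it was also -0.25. Leaving out 1 library of either group instead lowered the count of calls by over 1.5 times in 4 cases: 6 without Ctrl 3, 5 without Ctrl 4, and 6 without either TKO 4 or TKO 5. The share of all tested genes called in those fits was not computed. In the authors' deposited table for TKO and Ctrl, 13 members were lower and 2 higher at an adjusted p under 0.05. Over all genes of that table, 1025 were lower and 1152 higher.

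**Figure D2:**
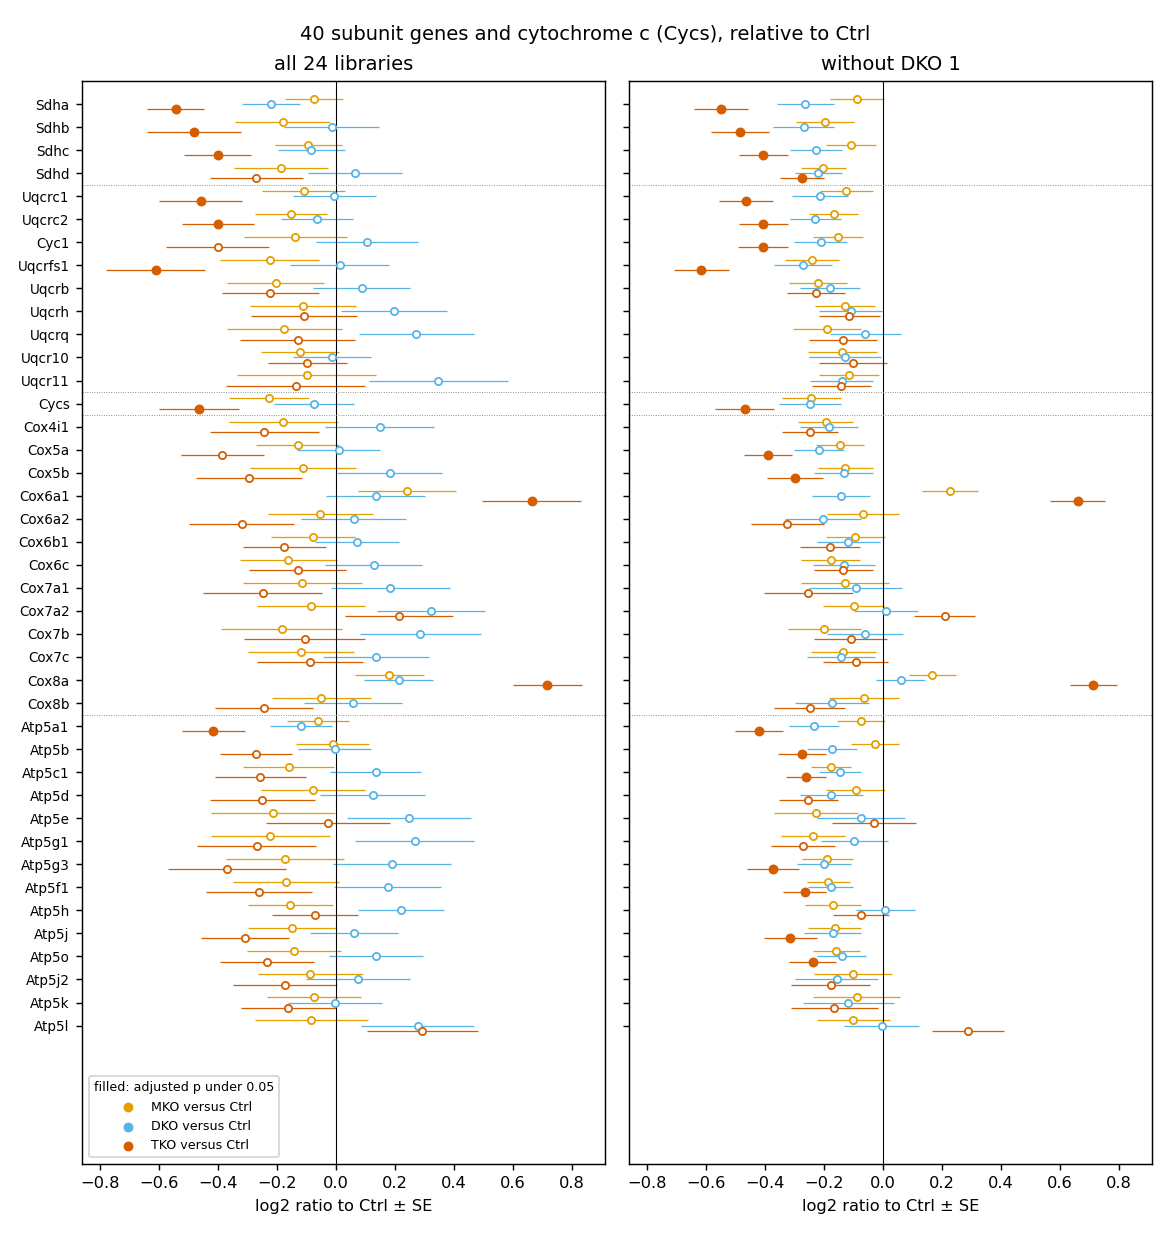
Fitted log2 ratio to Ctrl with its SE for 40 subunit genes and Cycs in MKO, DKO and TKO, with all 24 libraries (left) and without DKO 1 (right), and filled points at an adjusted p under 0.05. Dotted lines divide complex II, complex III, Cycs, complex IV and complex V, and Cox4i2, Cox6b2 and Atp5g2 are left out for their low counts. Cox8a and Cox6a1 are the only TKO points beyond 0.4 on the positive side, and the DKO points shift left when DKO 1 is left out.

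Complex II showed the most uniform difference. Its 4 genes summed to 4587 ± 308 CPM in TKO and 6345 ± 606 CPM in Ctrl (SD, n = 6 each). The 6 TKO libraries reached at most 5032 CPM and the Ctrl libraries were at least 5302 CPM, so the groups did not overlap. Sdha, the flavoprotein that oxidises succinate, had 2036, 2331 and 2545 CPM in TKO (lowest, median and highest) and 2670, 3394 and 3849 CPM in Ctrl. Every TKO library was below every Ctrl library for Sdha (3.4% of all tested genes did not overlap in this direction). The log2 ratio was -0.54 ± 0.10 (SE; edgeR, adjusted p = 0.000374), and the call held in all 24 fits that left out 1 library.

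Sdhb, the iron-sulfur subunit, had 835, 926 and 1234 CPM in TKO and 1226, 1325 and 1628 CPM in Ctrl. One end of each range met the other. Its log2 ratio was -0.48 ± 0.16 (edgeR, adjusted p = 0.0459), and the call was kept in 8 of 24 fits that left out 1 library, with values between -0.56 and -0.43. It was lost without Ctrl 1, 3, 4, 5 or 6, TKO 1, 4, 5 or 6, MKO 1, 2, 3, 4 or 5, or DKO 2 or 4 (adjusted p up to 0.109). Sdhc, a membrane anchor that helps bind ubiquinone, had 369, 407 and 474 CPM in TKO and 444, 545 and 657 CPM in Ctrl, with a log2 ratio of -0.40 ± 0.11 (edgeR, adjusted p = 0.0183, and 0.0669 without Ctrl 4). Sdhd, the other anchor, had 772, 889 and 939 CPM in TKO and 938, 988 and 1272 CPM in Ctrl, ranges that just touched. Sdhd did not pass with all libraries (log2 ratio -0.27 ± 0.16, edgeR adjusted p = 0.287) and passed without DKO 1 (-0.27 ± 0.08, adjusted p = 0.0108).

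In complex III the members called with all libraries were Uqcrfs1 and the core subunits Uqcrc1 and Uqcrc2. None of the small supernumerary subunits passed, and the kinds of subunit were not tested against each other. The complex summed to 7778 ± 1000 CPM in TKO and 10241 ± 1095 CPM in Ctrl. Uqcrfs1, the Rieske iron-sulfur protein that takes electrons from ubiquinol, had 832, 1033 and 1237 CPM in TKO and 1411, 1555 and 1874 CPM in Ctrl. All TKO libraries were below all Ctrl libraries. The log2 ratio was -0.61 ± 0.17 (edgeR, adjusted p = 0.0148), the largest fall among the called members, and it held in all 24 fits that left out 1 library.

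The core subunits Uqcrc1 and Uqcrc2, which frame the matrix side of the complex, also fell. Uqcrc1 had 2297, 2753 and 3169 CPM in TKO and 3116, 3776 and 4209 CPM in Ctrl, overlapping at the edge (log2 ratio -0.46 ± 0.14, edgeR adjusted p = 0.0297). Uqcrc2 had 724, 816 and 976 CPM in TKO and 971, 1057 and 1322 CPM in Ctrl (log2 ratio -0.40 ± 0.12, edgeR adjusted p = 0.0273). The Uqcrc1 call was kept in 17 of 24 fits that left out 1 library and the Uqcrc2 call in 19. Each was lost without Ctrl 3, Ctrl 4, TKO 1, TKO 4 or TKO 5, and Uqcrc1 also without Ctrl 1 or Ctrl 5, with adjusted p-values up to 0.076 for Uqcrc1 and 0.0858 for Uqcrc2 (edgeR).

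Cyc1, the cytochrome c1 that passes electrons on, had 1168, 1444 and 1772 CPM in TKO and 1681, 1895 and 2221 CPM in Ctrl. Its log2 ratio of -0.40 ± 0.17 did not pass with all libraries (edgeR, adjusted p = 0.134) and passed without DKO 1 (adjusted p = 0.00121). Cyc1 lies 4.67 Mb from Mrtfa on chromosome 15, the only member within 10 Mb of a targeted Mrtf gene, and whether strain sequence carried with the Mrtfa null allele bears on it was not tested. The 5 small subunits Uqcrb, Uqcrh, Uqcrq, Uqcr10 and Uqcr11 had log2 ratios between -0.22 and -0.10 and none passed, with all libraries or without DKO 1. Cycs, the mobile carrier between complexes III and IV, had 26.2, 30.4 and 38.4 CPM in TKO and 35.7, 43.3 and 51.0 CPM in Ctrl. Its ranges met at the edge and its log2 ratio was -0.46 ± 0.14 (edgeR, adjusted p = 0.0217). That call was lost without Ctrl 3, Ctrl 4, Ctrl 5, TKO 4 or TKO 5, with adjusted p-values up to 0.0619.

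**Figure D3:**
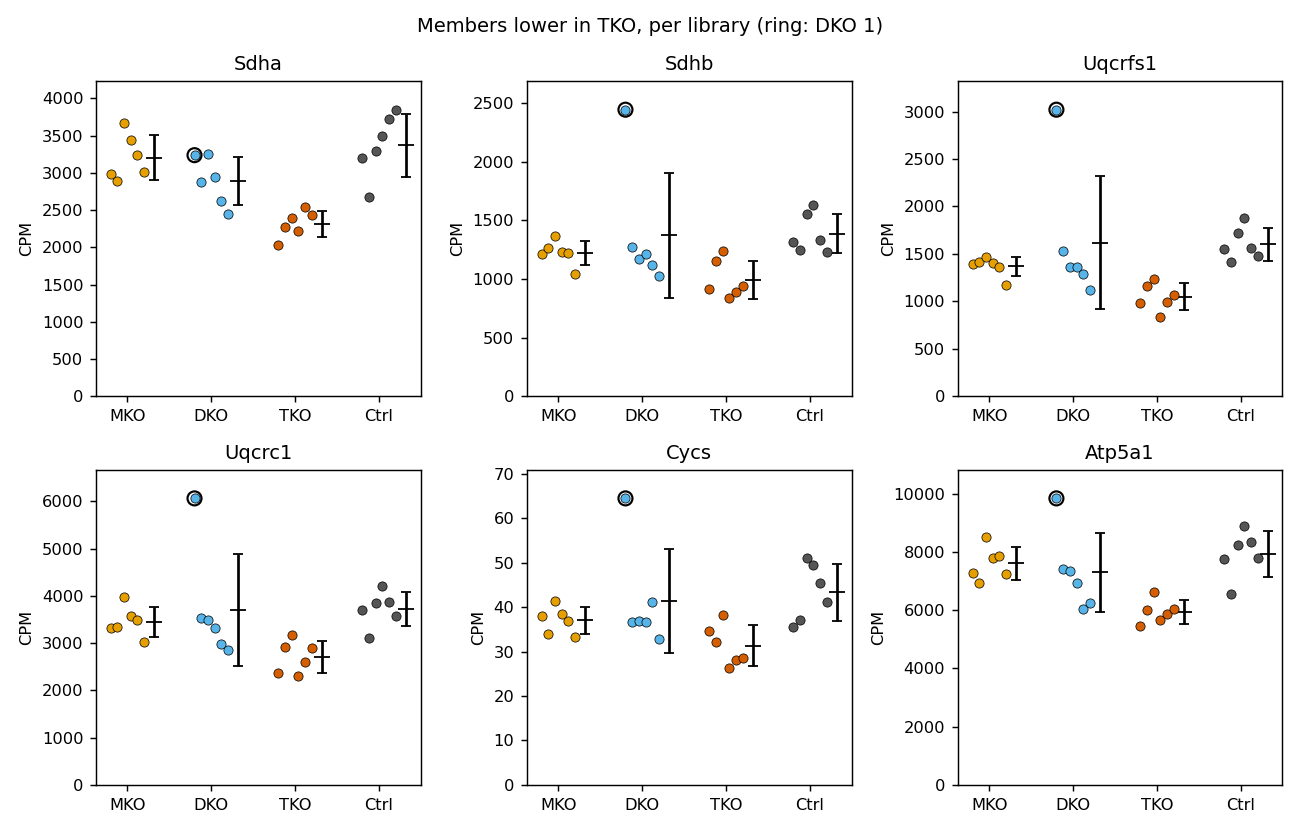
CPM of Sdha, Sdhb, Uqcrfs1, Uqcrc1, Cycs and Atp5a1 in each of 24 libraries by group, with the mean and SD of 6 libraries and a ring around DKO 1. The mean of TKO is the lowest of the 4 groups in each panel, and TKO libraries lie wholly below Ctrl for Sdha and Uqcrfs1.

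Complex IV held the 2 members called higher in TKO, the widely expressed isoforms of subunits 6A and 8 (8.14% of all tested genes were higher). Of its 15 genes, 12 had a negative log2 ratio. Their median over the 15 was -0.20, against -0.22 in complex III and -0.26 in complex V. The complex summed to 7523 ± 863 CPM in TKO and 8482 ± 1230 CPM in Ctrl, ranges that overlapped widely. Cox8a had 281, 310 and 340 CPM in TKO and 155, 184 and 241 CPM in Ctrl. All TKO libraries were above all Ctrl libraries, where 4.76% of all tested genes were. The log2 ratio was 0.72 ± 0.12 (edgeR, adjusted p = 0.000126), the smallest p among the members.

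Cox6a1 had 220, 245 and 284 CPM in TKO and 114, 156 and 195 CPM in Ctrl, again with no overlap. Its log2 ratio was 0.66 ± 0.17 (edgeR, adjusted p = 0.0081). Both calls held in all 24 fits that left out 1 library and under the 7 other settings. Cox7a2, the third widely expressed isoform, had 449, 524 and 561 CPM in TKO and 374, 426 and 536 CPM in Ctrl, overlapping (log2 ratio 0.21 ± 0.18, edgeR adjusted p = 0.492).

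None of the muscle isoforms passed. Cox8b had 288, 327 and 434 CPM in TKO and 311, 382 and 514 CPM in Ctrl (log2 ratio -0.24 ± 0.17, edgeR adjusted p = 0.369). Cox6a2 had 1102, 1181 and 1759 CPM in TKO and 1383, 1627 and 2017 CPM in Ctrl (log2 ratio -0.32 ± 0.18, edgeR adjusted p = 0.26). Cox7a1 had 205, 237 and 338 CPM in TKO and 236, 279 and 414 CPM in Ctrl (log2 ratio -0.25 ± 0.20, edgeR adjusted p = 0.463). In all 3 the groups overlapped over much of their range.

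**Figure D4:**
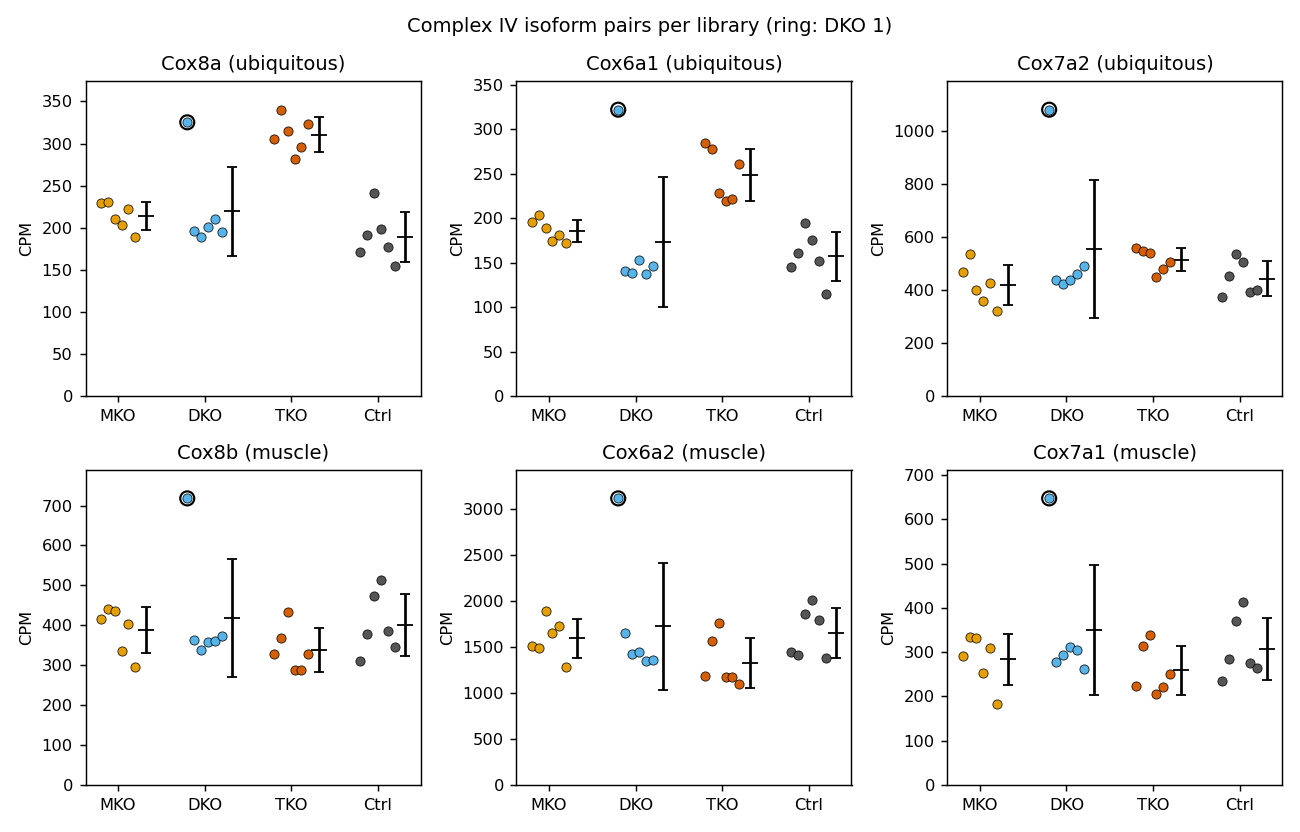
CPM of the widely expressed isoforms Cox8a, Cox6a1 and Cox7a2 (top) and of the muscle isoforms Cox8b, Cox6a2 and Cox7a1 (bottom) in each of 24 libraries by group, with the mean and SD of 6 libraries and a ring around DKO 1. TKO libraries lie above every Ctrl and MKO library for Cox8a and Cox6a1, and the groups overlap for the 3 muscle isoforms.

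Within a library, the ratio of muscle to widely expressed isoform does not depend on library size. The log2 ratio of Cox8b to Cox8a counts was 0.12 ± 0.18 in TKO, 0.90 ± 0.13 in DKO, 0.85 ± 0.14 in MKO and 1.08 ± 0.18 in Ctrl (SD, n = 6 each). TKO libraries lay between -0.04 and 0.46, and the lowest library of the other groups, an MKO library, was at 0.65. The difference was -0.96 from Ctrl, -0.79 from DKO and -0.73 from MKO (exact permutation tests, two-sided, p = 0.00216 each, the smallest that 6 against 6 allows, adjusted p = 0.00722 over 20 tests). DKO 1 sat at 1.14 in its ratio of Cox8b to Cox8a, within the range of Ctrl, although both genes were far higher in it.

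The log2 ratio of Cox6a2 to Cox6a1 was 2.40 ± 0.32 in TKO, 3.33 ± 0.12 in DKO, 3.09 ± 0.21 in MKO and 3.40 ± 0.19 in Ctrl. All TKO libraries were below all DKO and Ctrl libraries, and TKO overlapped MKO. The differences were -0.999 from Ctrl and -0.92 from DKO (exact permutation tests, adjusted p = 0.00722 each) and -0.69 from MKO (adjusted p = 0.0186). For Cox7a1 to Cox7a2 the log2 ratio was -1.01 ± 0.24 in TKO, -0.65 ± 0.15 in DKO, -0.57 ± 0.19 in MKO and -0.55 ± 0.14 in Ctrl. The highest TKO library, at -0.680, was just under the lowest Ctrl library, at -0.679. Its differences were -0.47 from Ctrl (exact permutation test, adjusted p = 0.00722), -0.36 from DKO (0.0303) and -0.44 from MKO (0.0289). The difference from DKO missed the threshold when any of 8 single libraries was left out (DKO 2, 3, 4 or 5, or TKO 1, 4, 5 or 6) and ranged from -0.43 to -0.30, and that from MKO did so for 6 (MKO 4 or 5, or TKO 1, 4, 5 or 6) and ranged from -0.51 to -0.38.

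Set per length, with counts divided by the length of each gene, the muscle isoform still led for subunits 6A and 8 in every group. Cox6a2 was a median of 4.30 times Cox6a1 in TKO, 7.90 in DKO, 6.97 in MKO and 8.68 in Ctrl. Cox8b was a median of 1.57 times Cox8a in TKO, 2.73 in DKO, 2.72 in MKO and 3.12 in Ctrl. Cox7a1 was about level with Cox7a2 in TKO, at a median of 0.985 times, and was 1.34 times Cox7a2 in DKO, 1.37 in MKO and 1.39 in Ctrl.

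With all 24 libraries, no difference of MKO or DKO from Ctrl in these ratios passed the threshold, and some passed without DKO 1. For Cox8b to Cox8a the difference from Ctrl was -0.23 in MKO (exact permutation test, adjusted p = 0.0577) and -0.18 in DKO (0.102). For Cox6a2 to Cox6a1 it was -0.31 in MKO (exact permutation test, adjusted p = 0.0577) and -0.07 in DKO (0.481). Without DKO 1, the Cox8b to Cox8a difference of DKO from Ctrl was -0.22 (exact permutation test, adjusted p = 0.0236), and the 2 MKO differences, whose values do not use DKO libraries, had an adjusted p of 0.0495 each.

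**Figure D5:**
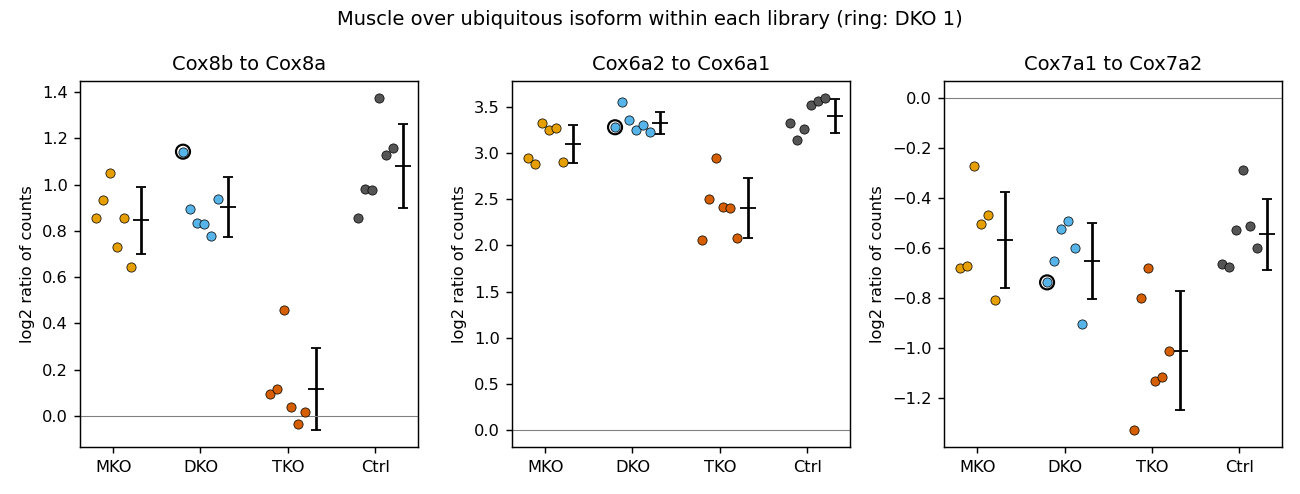
log2 ratio of muscle to widely expressed isoform counts within each of 24 libraries by group, with the mean and SD of 6 libraries, a grey line at 0 and a ring around DKO 1. TKO libraries lie below all other libraries for Cox8b to Cox8a, and DKO 1 lies among the other libraries in all 3 panels.

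Of the remaining complex IV genes, none passed with all libraries. Cox5a, which sits on the matrix side, had 821, 925 and 1048 CPM in TKO and 1056, 1158 and 1415 CPM in Ctrl. Its groups did not overlap, yet with all libraries it did not pass (log2 ratio -0.38 ± 0.14, edgeR adjusted p = 0.0713, and 0.00131 without DKO 1). Cox4i1, the general form of subunit 4, had 1369, 1582 and 1752 CPM in TKO and 1605, 1744 and 2307 CPM in Ctrl (log2 ratio -0.24 ± 0.18, edgeR adjusted p = 0.427). Its neighbour on the opposite strand of chromosome 8, Cox4nb, which encodes no subunit and does not overlap it in the count table, had 35.5 ± 2.6 CPM in TKO and 36.1 ± 2.3 CPM in Ctrl.

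Cox4i2, the alternative isoform known for its role under low oxygen, was near the limit of detection. It had 0.0586, 0.738 and 1.13 CPM in TKO, 0.399, 1.33 and 2.32 in DKO, 1.05, 1.60 and 3.01 in MKO, and 0.373, 0.740 and 3.65 in Ctrl. Relative to Cox4i1 its log2 ratio was lower by 1.88 in TKO than in MKO (difference -1.88, exact permutation test, adjusted p = 0.0271), and it missed the threshold without TKO 1, TKO 5 or TKO 6, with values between -2.15 and -1.38 over the fits that left out 1 library. Its difference between TKO and DKO did not pass with all libraries (-1.25, exact permutation test, adjusted p = 0.24) and was -1.75 without DKO 1 (adjusted p = 0.0236). Summed markers of smooth muscle and pericytes, cells that are known to express Cox4i2, were 392 to 659 CPM in TKO and 621 to 783 CPM in MKO. Of these 6 markers, edgeR called 4 lower and 1 higher in TKO than in MKO (6.86% and 6.48% of all tested genes). Their median log2 ratio was -1.03, and their part in the Cox4i2 to Cox4i1 ratio was not tested. Fewer cells of a type and less RNA per cell cannot be told apart in such libraries. Cox5b, Cox6b1, Cox6b2, Cox6c, Cox7b and Cox7c had log2 ratios of TKO to Ctrl between -0.29 and -0.09. Of these 6, none passed with all libraries, and Cox5b passed without DKO 1 (edgeR, adjusted p = 0.0241).

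Complex V held the most abundant members. In Ctrl libraries, Atp5b, the catalytic beta subunit, had 6592 ± 731 RPKM (CPM per kilobase) and Atp5a1, the alpha subunit beside it, 3259 ± 323 RPKM, the highest of the 48. The complex summed to 23084 ± 1369 CPM in TKO and 28541 ± 2859 CPM in Ctrl. Atp5a1 had 5466, 5931 and 6635 CPM in TKO and 6559, 8004 and 8875 CPM in Ctrl, overlapping at the edge. Its log2 ratio was -0.42 ± 0.11 (edgeR, adjusted p = 0.00885), and the call held in all 24 fits that left out 1 library.

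Atp5b had 9230, 10338 and 10995 CPM in TKO and 10023, 12641 and 14037 CPM in Ctrl, and did not pass with all libraries (log2 ratio -0.27 ± 0.12, edgeR adjusted p = 0.155, and 0.0164 without DKO 1). Atp5j, part of the peripheral stalk, had a log2 ratio of -0.31 ± 0.15 (edgeR, adjusted p = 0.183, and 0.0147 without DKO 1). The proton-carrying c-ring is encoded by 3 genes that give the same mature protein. Atp5g3, the main one here, had 1295, 1576 and 1684 CPM in TKO and 1742, 1871 and 2378 CPM in Ctrl. All TKO libraries were below all Ctrl libraries, and the log2 ratio was -0.37 ± 0.20 (edgeR, adjusted p = 0.243, and 0.00319 without DKO 1).

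Atp5g1 had 179, 245 and 291 CPM in TKO and 259, 287 and 368 CPM in Ctrl (log2 ratio -0.27 ± 0.20, edgeR adjusted p = 0.423). Atp5g2 was at 0.57 to 1.13 CPM in TKO and 0.497 to 1.83 CPM in Ctrl, too few reads to compare. The other 9 subunits of complex V had log2 ratios between -0.26 and 0.29. Atp5l was the only one of the 15 with a positive ratio (0.29 ± 0.19, edgeR adjusted p = 0.337), and 72.2% of its transcript is matched by annotated pseudogenes. Without DKO 1, 7 of the 15 were lower: Atp5a1, Atp5b, Atp5c1, Atp5f1, Atp5g3, Atp5j and Atp5o.

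Near-identical copies limit some of these levels. Of the 48 genes, 6 had at least 50% of their transcript matched at 95% identity or more by pseudogenes of GENCODE M21 (Atp5h, Atp5o, Atp5l, Uqcrb, Atp5k and Atp5f1), and none of them was called with all libraries. Without DKO 1, however, Atp5f1 (edgeR, adjusted p = 0.00991) and Atp5o (0.0335) were called lower in TKO than in Ctrl. Atp5l was then called higher in TKO than in MKO (edgeR, adjusted p = 0.0231). No match was found for 32, among them Sdha to Sdhd, Uqcrfs1, Uqcrc1, Uqcrc2, Atp5a1 and the genes of the 3 muscle isoform pairs. Cycs had 10.2% of its transcript matched.

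TKO was also compared with MKO and DKO. Against MKO, Sdha (log2 ratio -0.47 ± 0.10, edgeR adjusted p = 0.00222) and Atp5a1 (-0.36 ± 0.11, adjusted p = 0.0275) were lower and Cox8a was higher (0.53 ± 0.12, adjusted p = 0.00335), where 6.86% of all tested genes were lower and 6.48% higher. Sdha had 2884, 3122 and 3671 CPM in MKO, Atp5a1 had 6928, 7531 and 8508, and Cox8a had 189, 217 and 230. For all 3, the TKO libraries did not overlap the MKO libraries, as was so for 5.06% of all tested genes on the lower side and 4.64% on the higher side. The Atp5a1 call was lost without MKO 3, MKO 4, MKO 5, TKO 1, TKO 4 or TKO 5 (adjusted p up to 0.086). Without DKO 1, 11 members were lower and 4 higher (10.7% and 11.4% of all tested genes): Cox6a1, Cox7a2 and Atp5l joined Cox8a. The counts were the same with 22 libraries, where 11.4% and 12% of all tested genes were called.

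Against DKO with all libraries, Uqcrfs1 (log2 ratio -0.62 ± 0.17, edgeR adjusted p = 0.0254) and Sdha (-0.32 ± 0.10, adjusted p = 0.0464) were lower and Cox8a was higher (0.50 ± 0.12, adjusted p = 0.0095), where 2.22% of all tested genes were lower and 4.16% higher. This comparison contains DKO 1. Without it, the median log2 ratio of TKO to DKO over the members was -0.08, against -0.33 with it. Uqcrfs1 was then at -0.34 ± 0.10 (edgeR, adjusted p = 0.0279), and Sdha no longer passed (-0.28 ± 0.10, adjusted p = 0.0659). Cox8a (0.65 ± 0.08, edgeR adjusted p = 2.36e-05) and Cox6a1 (0.80 ± 0.10, adjusted p = 1.59e-05) were higher without DKO 1, where 2.85% of all tested genes were lower and 6.05% higher. In the 5 other DKO libraries Cox8a lay between 189 and 210 CPM and Cox6a1 between 137 and 152 CPM. The TKO ranges were 281 to 340 CPM for Cox8a and 220 to 284 CPM for Cox6a1. The Uqcrfs1 call was lost without TKO 1, TKO 4 or TKO 5 (adjusted p up to 0.0699), and the Sdha call was kept in 4 of 24 fits that left out 1 library (Ctrl 2, DKO 5, DKO 6 or TKO 5), with an adjusted p up to 0.102 in the others. With only TKO and DKO in the fit, edgeR called no member, and 15 had an unadjusted p under 0.05. The share of all tested genes at that p was not computed for this fit.

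Between MKO and Ctrl no member was called by edgeR, DESeq2 or limma (edgeR called 0% of all tested genes). At an unadjusted p under 0.05 in edgeR there were 0 members, against 762 of 12281 tested genes. The median log2 ratio over the members was -0.13, with 44 of 48 below 0, and 0.00 over all tested genes. Sdha had 2884, 3122 and 3671 CPM in MKO, inside the Ctrl range. Without DKO 1, 12 members had an unadjusted p under 0.05, 10 lower and 2 higher (Cox8a and Cox6a1), and none was called. Of 12281 tested genes, 869 were then lower and 601 higher at that unadjusted p.

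No member was called between DKO and Ctrl either, by edgeR, DESeq2 or limma, where edgeR called 0.301% of all tested genes higher and 0.334% lower. One, Sdha, had an unadjusted p under 0.05 in edgeR (2447, 2911 and 3248 CPM in DKO, log2 ratio -0.22 ± 0.10, adjusted p = 0.429). Over all 12281 tested genes, 1285 had such a p. The median log2 ratio over the members was 0.09 with all libraries and -0.14 without DKO 1, so the sign for the group of genes rests on that library. Leaving it out, 15 members had an unadjusted p under 0.05 in edgeR, all lower, against 883 lower and 579 higher of 12281 tested genes. None was called, where edgeR called 0.348% of all tested genes higher and 0.655% lower. The comparisons of the 3 groups with Ctrl share the Ctrl libraries, and without DKO 1 their median log2 ratios were -0.25 for TKO, -0.14 for DKO and -0.14 for MKO.

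For DKO and MKO no member was called with all libraries by edgeR or DESeq2. Over all tested genes edgeR called 0.301% higher and 0.489% lower. Limma called 1 member, and its share over all tested genes was not computed. In edgeR 6 members had an unadjusted p under 0.05, all higher in DKO, against 1148 higher and 729 lower of 12281 tested genes. With 22 libraries Cox6a1 was lower in DKO (log2 ratio -0.37, edgeR adjusted p = 0.0435), where 1.08% of all tested genes were called. The interaction compares the TKO to DKO ratio with the MKO to Ctrl ratio. By edgeR and DESeq2 no member passed with all libraries, where edgeR called 0.464% of all tested genes. In edgeR 1 member had an unadjusted p under 0.05, against 1520 of 12281 tested genes. With limma 3 members passed, and its share over all tested genes was not computed. Without DKO 1, Cox8a (0.48 ± 0.12, edgeR adjusted p = 0.0314) and Cox6a1 (0.57 ± 0.14, adjusted p = 0.0307) passed, where 1.63% of all tested genes were called. In the 22 libraries Cox8a passed (0.41 ± 0.10, edgeR adjusted p = 0.0418, where 1.05% of all tested genes were called) and Cox6a1 did not (0.51 ± 0.13, adjusted p = 0.0505).

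The members varied together across libraries. Over the 1128 pairs of members, Pearson's r of log2 CPM had a median of 0.78 over 24 libraries and 0.61 without DKO 1, and 94.0% and 86.7% of pairs were positive. These libraries share depth and scaling as well as cell type. The tested genes outside the members that followed their mean most closely over 24 libraries were the complex I subunit genes Ndufb5 (r = 0.988), Ndufs8 (0.986), Ndufb10 (0.984), Ndufa8 (0.982) and Ndufa2 (0.978). Without DKO 1, Ndufb5 (0.971) and Ndufs8 (0.962) still led. Across the 48 members, longer genes had lower log2 ratios of TKO to Ctrl (Pearson's r = -0.32, Spearman's rho = -0.52, across genes, which are not independent), against r = 0.01 over 12233 other genes.

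Other genes of mitochondrial energy supply were lower in TKO as well (edgeR, 24 libraries, set against 5.98% of all tested genes). Of 18 genes of the tricarboxylic acid cycle, which feeds complex II and complex I, 12 were lower and none higher, with a median log2 ratio of -0.40. They include Dld (-0.56 ± 0.08), the shared subunit of the pyruvate and oxoglutarate dehydrogenases, Fh1 (fumarase, -0.44 ± 0.09), Pdhx (-0.49 ± 0.11) and Cs (citrate synthase, -0.47 ± 0.10). All 18 were lower without DKO 1 and with 22 libraries, where 10.9% and 10.3% of all tested genes were. Of 30 genes listed as assembly factors for complexes II to V, 12 were lower and 1 higher. Those with the smallest p include Lrpprc, a stabiliser of mitochondrial mRNA (-0.57 ± 0.14), and Uqcc (-0.53 ± 0.11). They also include Cox10, which makes the haem of complex IV (-0.63 ± 0.16). Foxred1 (-0.47 ± 0.08), with the smallest p of the list, is known for the assembly of complex I. The count of 12 is therefore not of factors for complexes II to V alone.

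Of 35 complex I subunits, 5 were lower with all libraries and 19 without DKO 1 (5.98% and 10.9% of all tested genes), among them Ndufs1 (-0.43 ± 0.10), Ndufv1 (-0.53 ± 0.13) and Ndufa10 (-0.53 ± 0.14). The cristae list, proteins that shape the inner membrane, had 5 of 15 lower, led by Immt (-0.48 ± 0.09). Of 13 genes for transcription and upkeep of mitochondrial DNA, 2 were lower, Mterfd2 (-0.38 ± 0.11) and Tfam (-0.34 ± 0.11). With 22 libraries Tfam did not pass (-0.26, edgeR adjusted p = 0.0505). None of 10 genes for ATP export and phosphate transfer passed with all libraries in edgeR. At an unadjusted p under 0.05 there were 2, against 3319 of 12281 tested genes. Without DKO 1, 3 were lower, against 10.9% of all tested genes. Among 12 factors that bind respiratory gene promoters, Ppargc1b, a coactivator of the estrogen-related receptors, was the 1 that passed (-0.85 ± 0.12), and the list's median was -0.01. Of 8 cardiomyocyte markers, 2 were lower in TKO, and the list's median was -0.21. In 5 of 6 TKO libraries summed atrial markers (Nppa, Myl7, Myl4 and Sln) were above the Ctrl median of 208 CPM, while the median log2 ratio of these 4 genes was -0.80. Of the 4 atrial markers, edgeR called 1 higher and 0 lower (8.14% and 5.98% of all tested genes). Their part in the results on the respiratory genes was not tested.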

How the data were processed

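RNA was extracted from sorted cardiomyocytes after Langendorff isolation and made into libraries with SMART-Seq v4 and Nextera XT, per the labels' protocols. These kits do not mark the strand, so reads of overlapping genes on opposite strands cannot be told apart. The deposited table holds raw read counts per gene with gene lengths. STAR, featureCounts, DESeq2 and mm10 are named in the submitters' processing notes, without versions. The authors' deposited comparison tables give log2 fold changes and adjusted p-values. No header names their libraries, but their mean levels were recovered (median difference at most 4.62e-06% over genes) from the 2 groups compared without Ctrl 3 and DKO 1, and from no other set tried that left out up to 2 libraries.

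All 24 libraries were fitted together with edgeR 4.0.16 (R 4.3.3; quasi-likelihood F-test, TMM scaling, filterByExpr with a minimum count of 10), and p-values were adjusted by Benjamini-Hochberg over 12281 genes, with calls at 0.05. CPM uses TMM-scaled library sizes, and SE is the log2 ratio divided by the square root of F. Isoform ratios used counts plus 0.5 and two-sided exact permutation tests (scipy 1.17.1), adjusted over 20 tests. The fit was tested on simulated data. No pair of libraries of a group looked like one library deposited again (chi-square per gene 5.54 to 85.8 over 60 pairs). Alternatives were RLE size factors, no filter, DESeq2 1.42.0, limma 3.58.1 (voom with quality weights), a replicate block, only the 2 groups compared, 22 libraries, another pseudocount for ratios, and leaving out each library.

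Genes named are the called members, complex II, Cycs, Cyc1 and the isoform pairs, up to 4 called genes by adjusted p from each other list, and the 5 genes most like the members' mean. Where other members are given with values, they were chosen after their values were seen. The members and lists were chosen with earlier results of these data known. Counting depth limits precision mainly for Cox4i2, Cox6b2 and Atp5g2.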

Additional observations from a re-analysis of the deposited data

Results flagged for a closer look

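Of 128 groups of 6 libraries checked, 29 had 1 library whose gap to its nearest neighbour was large for the range of its group, where chance flags about 1 in 20. DKO 1 was that library in 26 of the 29. In CPM, against the range of the other 5 DKO libraries, it had 325.18 for Cox8a (188.79 to 210.01), 321.78 for Cox6a1 (137.03 to 152.47), 3120.3 for Cox6a2 (1348.9 to 1655.4), 717.86 for Cox8b (336.85 to 372.74), 647.55 for Cox7a1 (262.04 to 311.21) and 1080.8 for Cox7a2 (423.86 to 491.01). Both isoforms of each pair were therefore high. It had 4123.4 CPM for Cox4i1 and 2049.1 for Cox5a.

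In the other complexes DKO 1 had 2443.2 CPM for Sdhb, 737.64 for Sdhc and 2041.9 for Sdhd, while Sdha was not among the genes marked. For complex III it had 3019.5 CPM for Uqcrfs1, 6062.5 for Uqcrc1, 1586.9 for Uqcrc2 and 4094.1 for Cyc1, and it had 64.516 for Cycs. For ATP synthase it had 9835.4 CPM for Atp5a1, 747.22 for Atp5g1 and 4904 for Atp5g3. Its sums were 8460.7 CPM for complex II, 18992 for complex III, 16864 for complex IV, 46199 for complex V, 64.5 for cytochrome c and 90580 for all of them. Its log2 ratio of Cox4i2 to Cox4i1 was -13.011, the lowest of its group (others -10.606 to -9.4993).

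The 3 other cases were single libraries too. Ctrl 2 had 3.654 CPM of Cox4i2, against 0.373 to 0.92 in the other Ctrl libraries, and a log2 ratio of Cox4i2 to Cox4i1 of -8.9253 (others -12.209 to -10.997). TKO 3 had a log2 ratio of Cox8b to Cox8a of 0.4598, against -0.0361 to 0.1173 in the other TKO libraries, and still lay below every library of the other groups.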

How the results depend on the processing

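Cox8a, Sdha, Cox6a1, Atp5a1 and Uqcrfs1 passed between TKO and Ctrl in every alternative run, and no called gene changed direction in any. The count of members called between TKO and Ctrl was 10. It was 19 with limma's quality weights, 17 with only the 2 groups in the fit and 19 with 22 libraries, and 5 to 22 when 1 library was left out. Between TKO and DKO, 3 became 6 with DESeq2, 7 with limma and 0 with only the 2 groups (1 to 5 leaving out 1 library: 5 without DKO 6, 1 without TKO 1 or TKO 4). Between TKO and MKO, 3 became 15 with limma, 13 with 2 groups and 15 with 22 libraries (2 to 15, 15 without DKO 1). Between DKO and MKO, 0 became 1 with limma and with 22 libraries (Cox6a1, log2 ratio -0.37). The interaction count of 0 became 3 with limma and 1 with 22 libraries (0 to 2: 1 without Ctrl 2, 2 without DKO 1). The share of all tested genes called was computed only for the edgeR fits with all 24 libraries, without DKO 1 and with 22 libraries. Counts under the other settings therefore have no share to be set against. The cause of the moves in these counts was not tested.

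With 22 libraries, Cox6a2 to Cox6a1 (-0.33) and Cox8b to Cox8a (-0.25) passed between MKO and Ctrl, as did Cox8b to Cox8a between DKO and Ctrl (-0.24) and Cox4i2 to Cox4i1 between TKO and DKO (-1.75). Leaving out 1 library gave -0.36 to -0.26, -0.28 to -0.17, -0.22 to -0.12 and -1.75 to -0.75 for these 4. It gave -0.43 to -0.30 for Cox7a1 to Cox7a2 between TKO and DKO, -0.51 to -0.38 between TKO and MKO and -0.081 to 0.029 between MKO and Ctrl, where the sign turned without Ctrl 4 (0.029), MKO 1 (0.00012) or MKO 6 (0.025). For Cox4i2 to Cox4i1 it gave 0.75 to 1.40 between MKO and Ctrl and -2.15 to -1.38 between TKO and MKO.

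The deviations of same-numbered libraries of different groups correlated over 0.1 in 14 of 36 pairs (r between -0.218 and 0.642, median 0.07), and the labels do not say what a number marks, so the numbers were not taken to pair libraries. With the replicate block, edgeR called 10 members between TKO and Ctrl, 4 between TKO and DKO and 4 between TKO and MKO. The share of all tested genes called with that block was not computed. For ratios, 6 pairs cannot give an exact sign-flip p under 0.03125, and after adjustment none passed: -0.999, -0.92 and -0.69 for Cox6a2 to Cox6a1 (TKO against Ctrl, DKO and MKO), -0.47, -0.36 and -0.44 for Cox7a1 to Cox7a2, -0.96, -0.79 and -0.73 for Cox8b to Cox8a, and -1.88 for Cox4i2 to Cox4i1 (TKO against MKO).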
